A study of Mus musculus with 4 samples.

Results

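The genes described here encode the protein-folding machinery of the cell: the heat shock proteins of the HSP90, HSP70, HSP110, mitochondrial chaperonin and small HSP families, the DnaJ (J-domain) proteins, and the cytosolic chaperonin CCT. They were taken as every entry of the count table whose symbol starts with Hsp90a, Hsp90b, one of Hspa, Hspb, Hspd, Hspe or Hsph and a number, one of Dnaja, Dnajb or Dnajc and a number, or Cct2 to Cct8, leaving out entries marked as pseudogenes. This gave 82 genes of 55421 in the table. RNA was sequenced from primary spermatogonial cultures (SSC cultures) of CD1 mice, with 2 libraries from complete SSC medium (Veh) and 2 from nutrient restriction medium plus retinoic acid (NRRA). Per the labels, all cultures were supplemented with N2 and with 10 ng/ml each of bFGF and GDNF. The study's supplement differs: it makes the NRRA medium mostly of a balanced salt solution (EBSS) with a small part of complete SSC medium. By that recipe N2, bFGF and GDNF would be lower in NRRA than in Veh. It also lists another GDNF concentration for complete SSC medium. The labels carry no RA dose or treatment time, and what the study's text states of these is not repeated here. Per the study's methods SSC cultures come from neonatal pups and grow on irradiated mouse embryonic fibroblast feeder cells, so each library holds RNA of both cell types.

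HSP70 proteins bind unfolded stretches of other proteins in cycles of ATP hydrolysis. J-domain proteins bring clients to HSP70 and start the hydrolysis, HSP110 proteins and other exchange factors release the ADP, and HSP90 takes over many kinases and receptors for their last folding steps. CCT is a ring of different subunits that folds actin and tubulin, HSP60 and HSP10 form the corresponding chamber in mitochondria, and small HSPs hold denatured proteins until they can be refolded. Germ cells also use forms of their own, among them HSPA2, which is abundant in meiotic spermatocytes.

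Promoter windows of RefSeq (GRCm38.p6, from 250 bases before to 50 bases after a start) were held for 66 of the 82 genes. The promoters were searched on both strands for the heat shock element GAANNTTC, which reads the same on both strands, and for the ER stress element, which is CCAAT, then 9 bases, then CCACG. The heat shock element was found in 7.86% of all 32851 windows and in 18 of the 85 windows of the members (21.2%). Those 18 windows belonged to 16 genes, of which 10 were lower, 3 higher and 3 not called or not tested in the comparison described below. Of all 66 genes with a window 26 were lower, 17 higher and 23 not called or not tested. The ER stress element was found in 0.119% of all windows and in windows of 3 members: Hspa5, Hsp90b1 and Dnajc3. A match is a description of the letters and not a bound site. The stretches below are shown because they carry the matches of members whose values follow, written 5′ to 3′ on the strand of the gene with the matches in capitals. Those of Hspe1 and Hspb1 and that of Hspa1a hold heat shock elements, and the other 4 hold ER stress elements.
Hspa1a, the 200 bases before the start, chr17:34972157-34972356, minus strand: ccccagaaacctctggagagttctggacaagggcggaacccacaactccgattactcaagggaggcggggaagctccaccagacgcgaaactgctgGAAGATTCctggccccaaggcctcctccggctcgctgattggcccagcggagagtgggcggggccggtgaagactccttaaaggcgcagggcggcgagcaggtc
Hspe1, chr1:55088053-55088082, plus strand: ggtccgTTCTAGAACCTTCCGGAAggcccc
Hspb1, chr5:135887801-135887830, plus strand: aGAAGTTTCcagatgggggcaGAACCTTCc
Hspa5, chr2:34772020-34772049, plus strand: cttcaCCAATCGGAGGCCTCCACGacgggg
Hsp90b1, chr10:86705632-86705661, minus strand: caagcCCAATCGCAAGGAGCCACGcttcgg
Hsp90b1, chr10:86705527-86705556, minus strand: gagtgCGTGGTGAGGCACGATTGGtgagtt
Dnajc3, chr14:118937822-118937851, plus strand: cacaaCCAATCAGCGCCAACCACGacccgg

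In the Hspe1 stretch the heat shock element was part of a longer run of alternating GAA and TTC units. A longer element of 3 such units was searched as well, and the capitals of that stretch cover its matches too. The same bases lay within the window of Hspd1, which is transcribed from the opposite strand. The annotated starts of Hspd1 and Hspe1 were 111 bases apart on chromosome 1. Over the 200 bases before the start, Hspa1b differed from Hspa1a at 1 base and carried the same element. Neither motif was found in the windows of Hspa2, Hspa4l or Dnajb9.

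Counts assigned to genes totalled between 28022265 and 31604769 per library. Levels are given as CPM on the TMM-adjusted library, with the Veh libraries first, and log2 fold changes are NRRA over Veh with their standard errors (SE) from edgeR's quasi-likelihood test. A gene was called higher or lower at a Benjamini-Hochberg adjusted p under 0.05 over all 20232 genes tested. The study's reporting summary describes its sequencing replicates as independent biological ones, while the labels do not tie the libraries to cultures or animals, and the p-values measure the spread between these libraries. Stra8, the germ cell gene that retinoic acid induces, stood at 9.62 and 10.1 CPM in Veh and at 1864 and 1853 CPM in NRRA. Ddx4, which marks germ cells, stood at 273, 268, 271 and 278 CPM. Of 25 markers of the fibroblast feeder layer 21 were lower and 2 (Col3a1 and Pdgfra) higher in NRRA, none was at 0, and their summed level was between 12811 and 12923 CPM in Veh and between 9477 and 9732 CPM in NRRA. In such mixed cultures fewer cells of a type and less RNA per cell cannot be told apart. Of 12 Sertoli and Leydig cell markers, 6 passed the filter on low counts, and Fshr was at 0 in all libraries. Sox9 (-1.59) was lower, and Star (0.31) and Inha (0.53) were higher. The summed level of the 12 was between 44.4 and 48.7 CPM in Veh and between 29.4 and 30.1 CPM in NRRA. Its fall was that of Sox9, which went from 27.1 and 29.4 CPM to 9.33 and 9.43 CPM. The part of these shifts in the values of the chaperone genes was not tested.

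Of the 82 chaperone genes 77 passed the filter, and of those 21 were higher in NRRA, 35 were lower and 21 were not called. Over all genes tested 27.9% were called higher and 28.4% lower, so the members' share of higher calls was near that of all genes and their share of lower calls above it. With library totals in place of TMM factors, 26 members were higher and 30 lower, and 6962 genes were higher and 4593 lower among all genes, against 5654 and 5752 with TMM. Both NRRA libraries lay above both Veh libraries for 26 of the 77 tested members and below them for 39, against 38.1% and 38.6% of all genes tested. The median log2 fold change over the 77 was -0.053, and 0.037 with library totals. Together the 82 genes took 1.55% of the counts in both Veh libraries and 1.37% in both NRRA libraries. Only 5 members were called with a change of 2-fold or more, against 13.3% of all genes tested. These were Hspa2 and Dnajc22, which were higher, and Hspb7, Hspb9 and Hspb2, which were lower.

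The direction of the change went with the level of the gene. Of the 30 members with a mean of at least 100 CPM, 26 were lower and 1 was higher, Dnajc13. Among all 2802 genes at that level 48.5% were lower and 31.9% higher. The abundant members had a median log2 fold change of -0.31, against -0.068 for all genes at that level. With library totals 23 of the 30 were lower and 3 higher (Dnajc13, Dnaja3 and Dnajc14), against 37.9% and 43.3% of all genes at that level. Of the 28 members between 10 and 100 CPM, 14 rose and 4 fell, against 35.7% higher and 33.9% lower among all genes in that band, and their median of 0.10 compares with 0.0053. Below 10 CPM 19 of 24 members were tested, with 6 higher and 5 lower, against 20.2% and 17.8% of all genes at that level. For correlations, level was taken as log2 CPM per kilobase of exon, unlike the bands above. Across the 77 tested members, Spearman's rho between that level and log2 fold change was -0.50 and Pearson's r was -0.30. Over the 20209 tested genes with an exon length the values were -0.10 and -0.06. The points share the 4 libraries and no p is given.

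**Figure D1:**
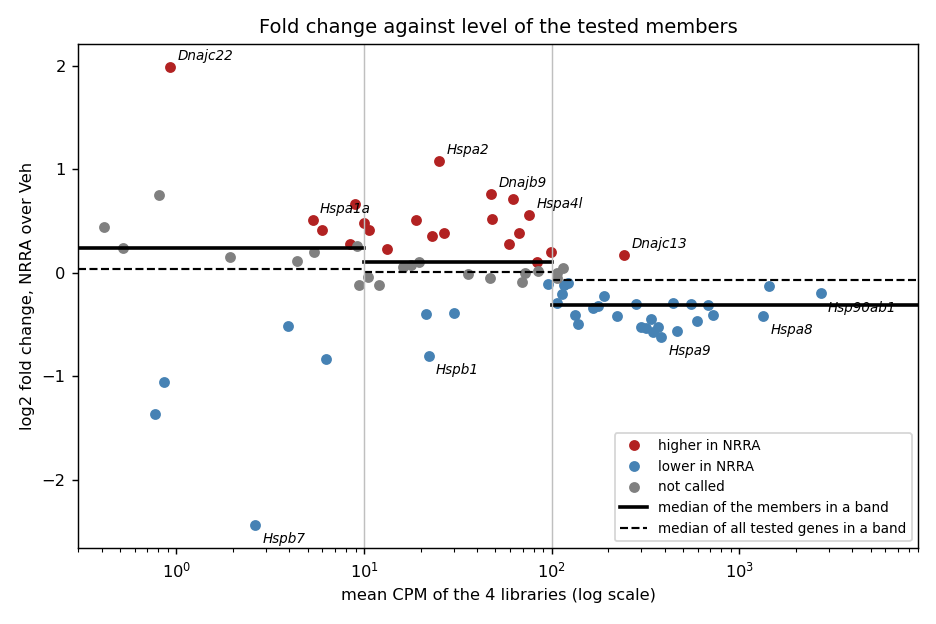
The log2 fold change of each tested member (vertical axis, NRRA over Veh) against its mean CPM over the 4 libraries (horizontal log axis), coloured by call, with solid and dashed lines for the medians of the members and of all tested genes in 3 bands of level. At 100 CPM or more the members' median of -0.31 lies under the -0.068 of all genes, and 26 of 30 members are lower.

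By compartment, the calls in the cytosol were mostly lower and those in the ER went both ways. Of 40 tested members of the cytosol 25 were lower and 7 higher, against 28.4% and 27.9% of all genes tested. Their median was -0.26, or -0.17 with library totals. The summed level of the cytosolic members went from 11944 and 12023 CPM in Veh to 9708 CPM in both NRRA libraries. The 8 mitochondrial members summed to 1238, 1249, 948 and 925 CPM, and the 13 of the ER to 2153, 2130, 1950 and 1904 CPM. By family, HSP90 (-0.20), HSP110 (-0.22) and DNAJA (-0.35) had medians under 0, while those of HSP70 (0.15) and DNAJB (0.076) were above it. The medians of all 9 families kept their sign with library totals and with the size factors of DESeq2, but with library totals HSP90 was at -0.11, HSP110 at -0.13, DNAJA at -0.26, HSP70 at 0.24, DNAJB at 0.17 and DNAJC at 0.19, and DNAJB was 0.17 with no filter and 0.0098 with a filter of at least 1 CPM in both libraries of a group. Some rested on single libraries: that of HSP70 was 0.077 without Veh replicate 1, 0.076 without NRRA replicate 1 and 0.30 without NRRA replicate 2, and that of DNAJB was 0.0082 without Veh replicate 1, 0.15 without Veh replicate 2 and 0.05 without NRRA replicate 2. The DNAJC median was 0.10, and 0.046 without Veh replicate 2.

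**Figure D2:**
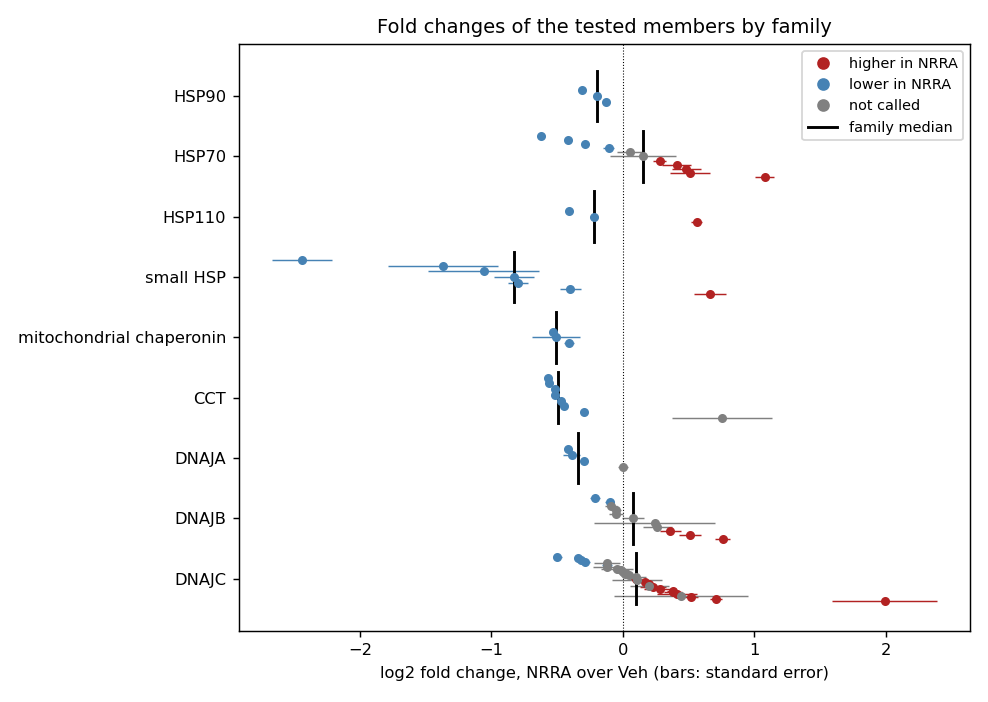
The log2 fold change (horizontal axis, NRRA over Veh) of the 77 tested members by family, each point with its standard error, coloured by call, and a black line at the family median. CCT and the small HSPs lie mostly to the left, with medians of -0.50 and -0.83, and the DNAJC genes lie on both sides of 0.

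All 3 HSP90 genes were lower in NRRA. Hsp90ab1, the constitutive cytosolic form, was the member with the highest level per kilobase of exon, at 2883 and 2918 CPM in Veh and 2527 and 2537 CPM in NRRA. It fell by 12.7% (log2 fold change -0.20 ± 0.019 SE, edgeR adjusted p = 9.4e-10). Hsp90aa1, the form that heat induces most, stood at 1528 and 1497 CPM in Veh and at 1387 and 1369 CPM in NRRA. The groups did not overlap for either gene, but the Hsp90aa1 change was small (-0.13 ± 0.021, edgeR adjusted p = 3.45e-06), and with library totals it was -0.044 and not called. Near-identical stretches in pseudogenes cover 68.7% of the longest Hsp90aa1 transcript. Hsp90b1, the ER form GRP94, fell most of the 3, from 765 and 744 CPM to 620 and 600 CPM (-0.31 ± 0.024, edgeR adjusted p = 2.86e-11). Per kilobase of exon, Hsp90ab1 made up 71.5% ± 0.474 (SD, n = 2) of the cytosolic pair in Veh and 70.7% ± 0.253 in NRRA.

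Within the cytosolic HSP70 genes the constitutive Hspa8 fell, and the inducible Hspa1a and Hspa1b and the testis form Hspa2 rose. Hspa8 (HSC70), which folds proteins in unstressed cells, stood at 1529 and 1536 CPM in Veh and at 1140 and 1155 CPM in NRRA. Both NRRA libraries lay far below both Veh libraries, a fall of 25.1% (-0.42 ± 0.020, edgeR adjusted p = 1.64e-15), although 64.8% of its longest transcript is near-identical to other loci. Hspa1a and Hspa1b, the neighbouring copies on chromosome 17 that encode stress-induced HSP70, were expressed at a small fraction of the Hspa8 level. Hspa1a stood at 4.46, 4.34, 6.45 and 6.05 CPM, and Hspa1b at 9.4, 8.87, 12.3 and 12 CPM. The NRRA libraries were the higher for both, with log2 fold changes of 0.51 ± 0.15 (edgeR adjusted p = 0.0044) and 0.41 ± 0.11 (0.00155). Reads of these near-identical copies (75.7% and 78.5% of the longest transcript) could be split between them, and with both summed the change was 0.45 (edgeR adjusted p = 9.21e-05). The 5 cytosolic forms together shifted their proportions. Per kilobase of exon, Hspa8 made up 96.9% ± 0.00742 of them in Veh and 93% ± 0.255 in NRRA, while Hspa1a and Hspa1b rose from 1.29% ± 0.0482 to 2.25% ± 0.0727. With 2 libraries against 2, the smallest two-sided p of an exact permutation test is 0.333, which each of these shares reached.

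Hspa2, the HSP70 of spermatocytes, showed the largest rise among members above 1 CPM. It lies on chromosome 12 (76404176-76406938, plus strand, GRCm38), has no near-identical copy in the annotation, and stood at 15.9 and 16.4 CPM in Veh and 34.6 and 33.5 CPM in NRRA. Both NRRA libraries were about double both Veh libraries, with a fold of 2.11 (log2 fold change 1.08 ± 0.072, edgeR adjusted p = 1.11e-12). Its share of the 5 cytosolic HSP70 genes per kilobase went from 1.66% ± 0.0271 to 4.49% ± 0.129. Even so its level per kilobase in NRRA, 12.9 ± 0.291, remained far under the 267 ± 2.39 of Hspa8. Hspa1l, the neighbour of Hspa1a that is expressed in spermatids, had 1.73, 1.92, 2.27 and 1.76 CPM. Its groups overlapped and it was not called (0.15 ± 0.25, edgeR adjusted p = 0.643), and 71.9% of its exonic bases overlap Gm10501 on the other strand.

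**Figure D3:**
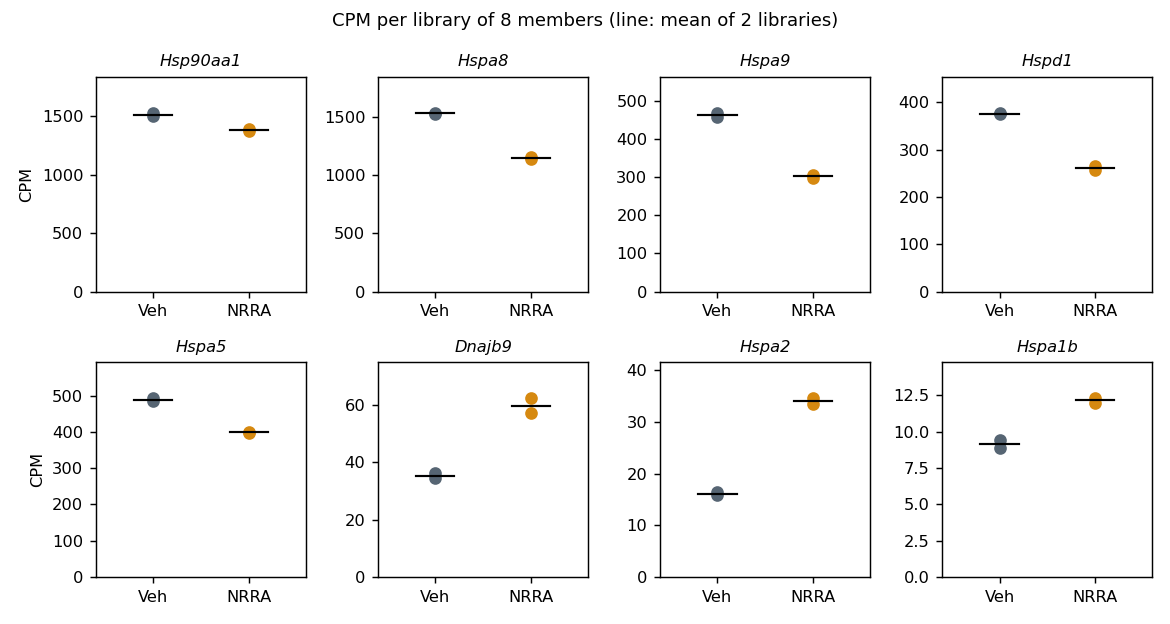
CPM of 8 members in each library (vertical axes from 0), with a point per library and a line at the mean of the 2 libraries of a group. Hsp90aa1, Hspa8, Hspa9, Hspd1 and Hspa5 are lower in both NRRA libraries, and Dnajb9, Hspa2 and Hspa1b are higher in both.

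Of the 3 other cytosolic HSP70 genes 1 fell, 1 rose and 1 was not called. Hspa14, which works with the J-domain protein of Dnajc2 at the ribosome, stood at 95.4, 103, 91.7 and 92.2 CPM (-0.11 ± 0.041, edgeR adjusted p = 0.0275). That call rested on few libraries: leaving out Veh replicate 2 gave -0.056 and leaving out either NRRA replicate gave -0.10 or -0.11, none of them called. Hspa12b, one of the divergent HSP70 proteins, rose from 8.52 and 8.17 CPM to 11.6 CPM in both NRRA libraries (0.48 ± 0.11, edgeR adjusted p = 0.000495). Its relative Hspa12a stood at 14.2, 17.4, 16.3 and 16.7 CPM, with overlapping groups and no call.

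The HSP110 genes, which exchange the nucleotide of HSP70, did not all move one way: 2 fell and 1 rose. Hspa4 fell from 822 and 827 CPM to 625 and 620 CPM (-0.41 ± 0.022, edgeR adjusted p = 2.03e-14). Hsph1, the heat-inducible HSP105, fell from 204 CPM in both Veh libraries to 173 and 178 CPM (-0.22 ± 0.030, edgeR adjusted p = 7.79e-07). Hspa4l, a form enriched in the testis, rose from 61.8 and 61 CPM to 90.7 and 89.9 CPM (0.56 ± 0.043, edgeR adjusted p = 1.65e-11). For none of the 3 did the groups overlap. The share of Hspa4l in the HSP110 genes per kilobase went from 2.85% ± 0.0371 to 5.3% ± 0.031.

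**Figure D4:**
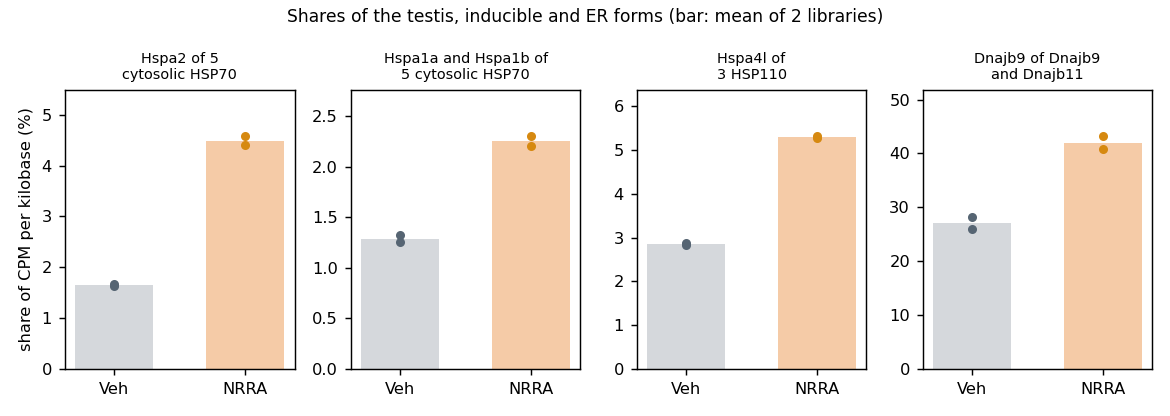
Shares of CPM per kilobase of exon in percent (vertical axes from 0) of Hspa2 and of Hspa1a with Hspa1b among the 5 cytosolic HSP70 genes, of Hspa4l among the 3 HSP110 genes and of Dnajb9 in its pair with Dnajb11. Bars are means of 2 libraries and points are libraries; each share is higher in both NRRA libraries.

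The RNA of the CCT subunits fell. All 7 subunit genes that encode the general ring (Cct2 to Cct5, Cct6a, Cct7 and Cct8) were lower in both NRRA libraries, with a median log2 fold change of -0.52 and edgeR adjusted p-values from 3.12e-11 for Cct8 to 7.31e-16 for Cct5. Their summed level went from 3415 and 3467 CPM in Veh to 2484 and 2480 CPM in NRRA, or from 0.331% and 0.336% of the counts to 0.256% in both. Cct3 fell most, from 412 and 410 CPM to 273 and 283 CPM (-0.57 ± 0.027). Close to it was Cct5, at 551, 563, 387 and 370 CPM (-0.56 ± 0.026). Cct4 (349, 356, 249 and 244 CPM) and Cct7 (425, 442, 299 and 307 CPM) had the same estimate of -0.52 ± 0.027. Cct2 went from 690 and 684 CPM to 496 and 494 CPM (-0.47 ± 0.023), and Cct6a from 376 and 400 CPM to 285 and 283 CPM (-0.45 ± 0.029). The smallest fall was that of Cct8, from 611 CPM in both Veh libraries to 495 and 500 CPM (-0.30 ± 0.023). Tcp1, which encodes the remaining subunit but is not reached by the symbols used here, changed like Cct8, from 545 CPM in both Veh libraries to 432 and 441 CPM (-0.32 ± 0.024, edgeR adjusted p = 1.26e-11).

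Although 1 copy of each subunit sits in each ring, the RNA levels of the 7 genes were not equal. Per kilobase of exon they ranged from 62.7 to 270 CPM in Veh replicate 1, a ratio of 4.3, and from 44.4 to 193 CPM in NRRA replicate 2, a ratio of 4.35. Cct2 was the highest and Cct3 and Cct7 the lowest in both groups. Cct5 (201 ± 3) was slightly above Cct8 (198 ± 0.0888) in Veh, whereas in NRRA Cct5 (137 ± 4.43) was under Cct8 (161 ± 1.33). These per-kilobase levels depend on the exon length of the annotation, which adds all annotated exons of a gene.

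**Figure D5:**
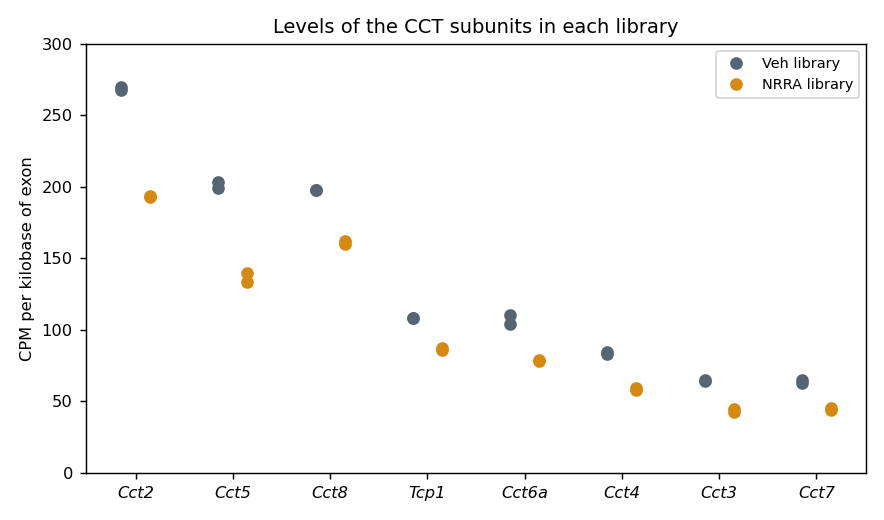
Level of each general CCT subunit gene and of Tcp1 in each library (vertical axis, CPM per kilobase of exon, from 0), ordered by the Veh mean. For each gene both NRRA points lie under both Veh points, and Cct2 is the highest in every library.

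The testis form Cct6b, which takes the place of Cct6a in spermatogenic cells, had only 16, 18, 31 and 32 counts. Both NRRA libraries were above both Veh libraries, but the change was not called (0.75 ± 0.38, edgeR adjusted p = 0.0999). In the Cct6 pair its share per kilobase was 0.297% ± 0.00773 in Veh and 0.681% ± 0.0568 in NRRA. Of 9 prefoldin and CCT helper genes, which deliver actin and tubulin to the ring or tune it, 5 were lower and 1 (Vbp1) higher, with a median of -0.14. Pfdn2 (-0.47), Pfdn5 (-0.45) and Pfdn1 (-0.42) changed most among them. Over all genes tested 28.4% were lower and 27.9% higher.

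In mitochondria the 3 folding genes Hspa9, Hspd1 and Hspe1 fell, and none of the mitochondrial J-domain members was called lower by edgeR. Hspa9 (mortalin), the HSP70 of the matrix, had the largest fall among members above 100 CPM, from 457 and 468 CPM to 306 and 298 CPM. Both NRRA libraries lay well below Veh, a fall of 34.8% (-0.62 ± 0.026, edgeR adjusted p = 9.2e-17). Hspd1 (HSP60), at 375, 378, 266 and 257 CPM, fell by 30.6% (-0.53 ± 0.027, edgeR adjusted p = 5.59e-15). Hspe1 (HSP10), its lid and its divergent neighbour, went from 155 and 146 CPM to 118 and 110 CPM (-0.41 ± 0.039, edgeR adjusted p = 1.21e-09). Near-identical pseudogene stretches cover 71.1% of the longest Hspd1 transcript. Dnaja3 (TID1), the J-domain partner of Hspa9, stood at 106, 107, 106 and 108 CPM, which gives a change of 0.0023 ± 0.037 with a 95% interval from -0.07 to 0.074. Of the other J-domain genes of mitochondria, Dnajc19 and Dnajc15 of the import motor (-0.014 and 0.10) and Dnajc30 (-0.12) were not called, although their groups did not overlap. With library totals Dnaja3 (0.092) and Dnajc15 (0.19) were called higher. Dnajc11, a protein of the cristae, was at 77.5, 82.6, 85.3 and 86.4 CPM (0.10 ± 0.043, edgeR adjusted p = 0.0491), a call that was lost in 3 of the 4 fits without a library, at 0.055 without Veh replicate 1, 0.11 without NRRA replicate 1 and 0.09 without NRRA replicate 2. Over the 8 mitochondrial members the median was -0.07, 0.02 with library totals and -0.045 without Veh replicate 1. Among 15 mitochondrial quality control genes outside the rule, 6 were lower and 2 higher, against 28.4% and 27.9% of all genes tested.

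In the ER Hspa5 and Hsp90b1 fell and Hspa13 rose, and of 10 J-domain genes 4 rose, 2 fell and 4 were not called. Hspa5 (BiP), the HSP70 of the ER, went from 493 and 485 CPM to 401 and 398 CPM (-0.29 ± 0.025, edgeR adjusted p = 1.21e-10). The fall of 18.2% was close to that of Hsp90b1, 19.1%, and both promoters carry the ER stress element shown above. Dnajc3 (p58IPK), the third member with that element, stayed level at 73.4, 71.6, 72.9 and 71.7 CPM (-0.0032 ± 0.043, 95% interval -0.088 to 0.082). Dnajb11 (ERdj3), a secreted cofactor of BiP, fell from 125 and 117 CPM to 104 and 105 CPM (-0.21 ± 0.038, edgeR adjusted p = 3.97e-05). Dnajb9 (ERdj4), which helps to degrade misfolded proteins, rose from 34.4 and 36.3 CPM to 62.4 and 57.1 CPM (0.76 ± 0.057, edgeR adjusted p = 1.32e-11). Both NRRA libraries lay above both Veh libraries, and the share of Dnajb9 in the pair with Dnajb11, per kilobase, went from 27.1% ± 1.6 to 42% ± 1.72. Dnajc10 (ERdj5), a disulfide reductase, fell from 191 and 200 CPM to 163 and 152 CPM (-0.32 ± 0.035). Hspa13, an HSP70 of microsomes, rose from 52 and 55.4 CPM to 66.3 and 63.7 CPM (0.28 ± 0.049, edgeR adjusted p = 3.02e-05). Dnajc18, of the ER membrane, rose from 38.6 and 40.6 CPM to 57.4 and 56.5 CPM (0.52 ± 0.053, edgeR adjusted p = 3.66e-09). Dnajb14, also of the ER membrane, rose from 18.8 and 21.5 CPM to 27.3 and 24.4 CPM (0.36 ± 0.080, edgeR adjusted p = 0.000422).

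Over the 13 ER members 5 were higher, 4 lower and 4 not called, against 27.9% higher and 28.4% lower among all genes tested. The median of the ER members was 0.015, or 0.10 with library totals. Of 20 other genes of the unfolded protein response and ER quality control that were tested, 6 were higher and 9 lower. Xbp1, a transcription factor of the response, fell by 0.94 on the log2 scale, and Atf4 by 0.60. Derl3 (0.49), Sel1l (0.46) and Syvn1 (0.44), which act in the degradation of ER proteins like Dnajb9, rose, whereas Herpud1 (-0.44), of the same process, fell and Edem1 (0.027) was not called. Ddit3, the gene of CHOP, stood at 13.7, 12.9, 14.2 and 15.4 CPM and was not called, while a second entry of that symbol had no count.

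The small HSPs were the family with the lowest median, -0.83, and with the lowest summed level, 75.5 and 73.1 CPM in Veh and 49.9 and 54.3 CPM in NRRA. Hspb7, on chromosome 4 (141420779-141425311, plus strand), stood at 4.61 and 4.27 CPM in the Veh libraries (125 and 127 counts) and at 0.768 and 0.864 CPM in the NRRA libraries (25 and 26 counts). Its NRRA libraries lay far below those of Veh (-2.44 ± 0.23, edgeR adjusted p = 1.24e-09). Hspb1 (HSP27), which binds actin and is induced by heat, fell by 42.6%, from 28.9 and 27 CPM to 15.7 and 16.4 CPM (-0.80 ± 0.077, edgeR adjusted p = 1.26e-09), with near-identical pseudogene stretches over 72.6% of its transcript. Hspb6 (HSP20) fell from 8.92 and 7.09 CPM to 4.42 and 4.58 CPM (-0.83 ± 0.15, edgeR adjusted p = 2.6e-05). Hspb8, the partner of BAG3, went from 23.7 and 25 CPM to 17.6 and 19.6 CPM (-0.40 ± 0.078). Hspb2, a partner of HSPB3 in muscle, had 38, 28, 26 and 9 counts (-1.06 ± 0.42, edgeR adjusted p = 0.0337), which was no longer called without Veh replicate 1 (-0.76) or NRRA replicate 2 (-0.54), and 30.2% of its exonic bases overlap Cryab on the other strand. Cryab, the small HSP of lens and muscle that the symbols here do not reach, fell from 35.9 and 35.5 CPM to 17.8 and 17.6 CPM (-1.01). The exception was Hspb11, which despite its name is a subunit of the intraflagellar transport particle. It rose from 6.75 and 7.19 CPM to 9.92 and 12.1 CPM (0.66 ± 0.12, edgeR adjusted p = 5.53e-05). Several small HSPs are known from muscle and fibroblasts, and the smooth muscle and fibroblast genes Tagln (-0.87), Cnn1 (-0.66) and Acta2 (-0.46) of the feeder markers fell too. Of all 25 feeder markers 21 were lower, Col3a1 (0.61) and Pdgfra (0.98) were higher, and Postn and Loxl1 were not called. The part of the feeder cells in the small HSP values was not tested.

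The cytosolic DNAJA genes, the general partners of HSP70, fell together. Dnaja1 went from 251 and 256 CPM to 190 and 188 CPM (-0.42 ± 0.029, edgeR adjusted p = 1.85e-12), close to the change of Hspa8. Dnaja2 fell from 313 and 305 CPM to 250 and 251 CPM (-0.30 ± 0.027) and Dnaja4 from 35.7 and 32.9 CPM to 26.5 and 25.7 CPM (-0.39 ± 0.066). Of the exonic bases of Dnaja4, 44.1% overlap Wdr61 on the other strand.

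The cytosolic DNAJB genes did not follow. Dnajb1, the heat-inducible HSP40, stood at 103, 112, 103 and 104 CPM. Its groups overlapped and it was not called (-0.053 ± 0.040, edgeR adjusted p = 0.272), though it was called at -0.11 without Veh replicate 1. Dnajb6, which suppresses aggregation, had 126, 127, 117 and 119 CPM (-0.10 ± 0.035, edgeR adjusted p = 0.016), and was not called without Veh replicate 2 (-0.094) or NRRA replicate 1 (-0.085), while near-identical stretches cover 47.3% of its transcript. Dnajb5 rose from 16.7 and 14.8 CPM to 23.8 and 20.8 CPM (0.51 ± 0.087, edgeR adjusted p = 1.79e-05). Dnajb2 and Dnajb4 had overlapping groups.

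DNAJC is the largest and most varied family, since its members share only the J domain. Of 27 tested 11 were higher and 5 lower, against the 27.9% and 28.4% of all genes tested. Dnajc21, which acts in the maturation of the large ribosomal subunit, rose from 48.2 and 46 CPM to 77.6 and 76.8 CPM (0.71 ± 0.047, edgeR adjusted p = 9.87e-13). Dnajc9, a histone chaperone, rose from 57.5 and 58.8 CPM to 73.5 and 78.4 CPM (0.38 ± 0.047), and Dnajc27, with a small GTPase domain, from 23.4 and 22.6 CPM to 29.8 and 30.1 CPM (0.38 ± 0.068). Dnajc13, which sorts cargo at endosomes, was the only member of at least 100 CPM called higher with TMM, from 226 and 230 CPM to 255 and 260 CPM (0.17 ± 0.028, edgeR adjusted p = 8.46e-06). Dnajc4 had 4.94, 5.34, 7.83 and 5.81 CPM (0.41 ± 0.15, edgeR adjusted p = 0.0245), and was not called without Veh replicate 1 (0.36) or NRRA replicate 1 (0.18). Dnajc22 had 13, 8, 54 and 39 counts (1.99 ± 0.40, edgeR adjusted p = 0.000121), the largest rise but among the least expressed.

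Among the falls, Dnajc2, the ribosome-bound partner of Hspa14, went from 163 and 161 CPM to 118 and 110 CPM (-0.50 ± 0.036, edgeR adjusted p = 4.38e-12). Dnajc7, which links HSP70 with HSP90, fell from 185 CPM in both Veh libraries to 143 and 150 CPM (-0.34 ± 0.033). Dnajc5, a vesicle protein, fell from 121 and 115 CPM to 94.7 and 97.8 CPM (-0.29 ± 0.039). Dnajc8, of the spliceosome, was at 125, 117, 111 and 113 CPM (-0.12 ± 0.038, edgeR adjusted p = 0.0116) and lost its call without Veh replicate 1 (-0.068) or NRRA replicate 1 (-0.10). The remaining DNAJC calls, Dnajc16, Dnajc24 and Dnajc28, were rises between 0.20 and 0.28, and those of Dnajc24 and Dnajc28 were each lost in all 4 fits without a library, at 0.20 to 0.26 and 0.25 to 0.31. The members not called ranged from -0.12 for Dnajc30 and Dnajc17, the latter with a transcript near-identical to other loci over 93.5%, to 0.44 for Dnajc6, which had between 9 and 19 counts.

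Of 12 testis isoforms among the members, 8 passed the filter, 2 rose (Hspa2 and Hspa4l, above) and 1 fell. Over all genes tested 27.9% were higher and 28.4% lower, so the isoforms' share of higher calls was near that of all genes. The one that fell was Hspb9, with 23, 41, 16 and 11 counts (-1.37 ± 0.42, edgeR adjusted p = 0.00641), which was not called without Veh replicate 2 (-0.97). Dnajb3 stood at 8.44, 8.3, 10.3 and 9.77 CPM, just short of the threshold (0.26 ± 0.11, edgeR adjusted p = 0.0513), and passed it with library totals (0.35) or the replicate block. Dnajc5g had 5.57, 4.5, 6.02 and 5.48 CPM with overlapping groups. Dnajb13, a protein of the sperm flagellum, had 12, 15, 16 and 19 counts. Dnajb8 had 4, 4, 7 and 5 counts, Cct8l1 4, 3, 1 and 1, Dnajb7 2, 2, 3 and 2, and Dnajc5b a single count in Veh replicate 1, and none of these 4 was tested. A count of 3, used as the floor, is worth between 0.0921 and 0.111 CPM, so these genes were at or near what the libraries can show. Hspb3, no testis isoform, was the fifth untested member, with 8, 4, 7 and 1 counts. The summed level of the 12 isoforms was 95.8 and 94.9 CPM in Veh and 146 and 143 CPM in NRRA, of which Hspa4l was the largest part in each library, followed by Hspa2, Dnajb3 and Dnajc5g.

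Markers of germ cell stages also differed between the groups. Of 16 markers of undifferentiated spermatogonia 15 were lower and Sall4 (0.84) was higher, with a summed level of 2780 and 2755 CPM in Veh and 893 and 892 CPM in NRRA. Of 12 germ cell markers 6 were higher and 5 lower. Of 12 pachytene spermatocyte markers 7 were tested and 5 of them were higher, among them Ccna1 (2.58) and Ybx2 (1.40). Tex101 (-0.18) was lower and Ldhc (-0.45) was not called, and the other 5 did not pass the filter, with a highest level in any library of 0.598 CPM, that of Meig1 in NRRA replicate 2. Of 17 spermatid markers 9 were tested, 2 were higher and 1 lower, and Catsper1 and Prm3 were at 0 in all libraries. The part of a change of stage in the levels of Hspa2 and Hspa4l was not tested.

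Heat shock gene induction by HSF1 is the textbook response to unfolded protein in the cytosol. Of 13 members taken as its targets, 9 were lower and 2 higher, with a median of -0.22, and Hspa1a and Hspa1b were the 2 that rose. Over all genes tested 28.4% were lower and 27.9% higher, and among those of at least 100 CPM, the level of most of these targets, 48.5% and 31.9%. The 9 that fell were Hsp90aa1, Hsph1, Hspd1, Hspe1, Hspb1 and Dnaja1 and, with high levels in unstressed cells too, Hspa8, Hsp90ab1 and Hspa4. Of 15 inducible genes on a second list, which holds 14 genes outside the rule and Hspb8, 9 were lower and 6 were not called. Hmox1 fell by 1.84 on the log2 scale, Bag3 by 0.45 and Serpinh1, the collagen chaperone HSP47, by 0.42, while Ubb, a ubiquitin gene, was not called. Hsf1 itself stood at 88.7, 91.4, 87.5 and 91.4 CPM (-0.011 ± 0.041) and Hsf2 at 53.5, 57.7, 58.6 and 59.8 CPM. Of 8 heat shock factor genes and their regulators 3 of low or middling level were higher (Hsf2bp, Hsf3 and Hsf4), and Hsf5 and Hsbp1 were lower.

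The partners outside the symbol rule mostly moved down as well. Of 32 co-chaperones of HSP70 and HSP90, 21 were lower and 1 higher (Ttc4), with a median of -0.24. Over all genes tested 28.4% were lower and 27.9% higher, and among those of at least 100 CPM 48.5% and 31.9%. Fkbp4, which couples steroid receptors to HSP90, fell from 671 and 648 CPM to 487 and 500 CPM (-0.42 ± 0.025). Stip1 (HOP), which bridges HSP70 and HSP90, fell from 389 and 392 CPM to 304 CPM in both NRRA libraries (-0.36 ± 0.026). St13 (HIP), Stub1 (CHIP) and Sgta were not called. Of 12 HSP, J-domain and related genes that the symbols do not reach, several of them also on the lists above, 10 were tested, 8 of them were lower, among them Trap1, the HSP90 of mitochondria, and Hyou1, the HSP110 of the ER, and 2 were higher.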

How the data were processed

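RNA-seq was analysed for 2 Veh and 2 NRRA libraries of CD1 SSC cultures. The values are raw counts per gene, in the form the authors deposited them, not normalised, and library totals differ. The submitters' processing notes name bcl2fastq, STAR 2.6.1c, featureCounts 1.6.4 and the mm10 build. The strand setting, the annotation release and the treatment of reads that map to several places are not given in the sources used here, and near-identical or overlapping genes are therefore uncertain. The labels name a TruSeq and a NuGEN preparation and the methods a stranded oligo-dT kit.

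Counts were tested with edgeR 4.0.16 in R 4.3.3 (filterByExpr, TMM, robust quasi-likelihood F test) over 20232 genes, with Benjamini-Hochberg adjustment and a threshold of 0.05. The study's methods name DESeq2, which was run here as an alternative (version 1.42.0). CPM uses the TMM-adjusted library. SE was derived from the F statistic, and SD is over 2 libraries. Groups follow the sample titles. The test was also run on simulated counts, and the outcome is not reported here. Exon lengths, overlaps and coordinates come from GENCODE M21 (GRCm38), which held all 82 identifiers, and near-identity means at least 95% over at least 100 bases (BLAST 2.17.0). Families, compartments and lists were assigned by hand, and the members and lists were chosen with earlier results of these data known. Full values are given for the general chaperones of each family, the testis isoforms and, in the DNAJA, DNAJB, DNAJC and small HSP families, up to 5 of the largest called rises and falls with a mean of at least 1 CPM. Hspb2, Dnajc22 and the members and list genes outside that rule were named after their values were seen. Totals gave a floor (3 counts) of 0.0921 to 0.111 CPM, which covers counting error only. Some genes that enter the counts are not reported here by name.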

Additional observations from a re-analysis of the deposited data

How the results depend on the processing

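Under the alternatives tried, 32 of the 56 called members kept call and direction in every fit, 45 did so in every fit but the test against a fold of 1.2 (glmTreat), and none changed direction. With glmTreat 12 members were higher and 21 lower, 3217 and 3304 among all genes, and at 100 CPM or more 15 members and 618 genes were lower, a band added after seeing the data. With library totals in place of TMM the median of all genes shifted by 0.09, the median of the members became 0.037 and that of mitochondrial members 0.02. The median was -0.088 over members of at least 1 CPM and between -0.085 (without NRRA replicate 1) and -0.069 when 1 library was left out.

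DESeq2 did not call Dnajb6, Dnajc4, Dnajc8, Dnajc11, Dnajc24, Dnajc28, Hspa14, Hspb2 and Hspb9, among others, and with library totals the calls of Dnajb6 (-0.011), Dnajc8 (-0.026), Hsp90aa1 (-0.044), Hspa14 (-0.018) and Hspb2 (-0.97) were lost. The members that changed sign were not called with TMM. With library totals Dnajb1 was 0.037, Dnajb12 0.0019, Dnajb4 0.037, Dnajc19 0.075, Dnajc25 0.045 and Dnajc3 0.087, and Dnajc3 was 0.0043 with no filter. Leaving out 1 library at a time, the values ranged from -0.0096 to 0.019 for Dnaja3, from -0.11 to 0.0036 for Dnajb1, from -0.11 to 0.0052 for Dnajb4, from -0.15 to 0.39 for Dnajc12, from -0.21 to 0.11 for Dnajc25, from -0.023 to 0.014 for Dnajc3, from -0.084 to 0.21 for Hspa12a and from -0.049 to 0.31 for Hspa1l. The cause was not tested.

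The Veh and NRRA libraries share replicate numbers in the sample titles, while the deposited counts number the Veh libraries otherwise. Deviations of libraries with the same title number correlated at -0.0106, so the numbers were not read as pairs. With the number as a replicate block, 22 members were higher and 35 lower, and 1 further call, Dnajb3 (0.26), was gained. Depth limits members under about 1 CPM.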
